A study of Homo sapiens with 24 samples.

Results

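The ZNF genes encode proteins, most of them DNA-binding, with C2H2 zinc fingers, short loops held by a zinc ion that each contact a few bases. The 143 ZNF genes described here are those whose symbol is ZNF followed by a number, that the authors' filtered table listed, and whose transcript had a mean of at least 100 reads over the 24 libraries. From 247 listed ZNF symbols among 10160 listed transcripts, they were chosen on that mean level alone, so their levels are given as a description. Differences between conditions played no part in that limit. The ZNF family itself was chosen with earlier results of these data known, so the shares of called genes below are not free of that choice. Just inside the limit stood ZNF658B with a mean of 110.4 reads, ZNF442 with 107.5 and ZNF815P with 102.4. ZNF599 with 99.9, ZNF354C with 94.6 and ZNF132 with 93.3 fell just outside it.

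Many ZNF proteins carry a KRAB box, a domain that recruits the corepressor TRIM28 (KAP1), and through it the H3K9 methyltransferase SETDB1 and HP1 proteins, so that the DNA they bind is packed into silent chromatin. Their genes lie in tandem clusters, above all on chromosome 19, and the clusters are themselves known to be covered by H3K9 methylation and HP1. G9a and GLP are a pair of related H3K9 methyltransferases that act as a complex, and HP1γ binds methylated H3K9. Outside histones, G9a and GLP also serve as coactivators of the glucocorticoid receptor.

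RNA was sequenced from Nalm6, an established human line of B-cell precursor acute lymphoblastic leukemia, to ask which genes need G9a, GLP or HP1γ for their level with a glucocorticoid. Lentivirus delivered an shRNA against G9a (gene EHMT2, shG9a), GLP (EHMT1, shGLP), HP1γ (CBX3, shHP1γ) or a nonspecific sequence (shNS), and puromycin-selected populations, not clones, were used. Cells with each of these 4 shRNAs received 100 nM dexamethasone (dex, a synthetic glucocorticoid) or the vehicle ethanol for 8 h. There were 3 biological replicates, made on different days. Every library therefore came from virus-infected, puromycin-selected cells, the shNS controls included, and 1 shRNA is named per protein. Whether the replicates came from 1 infected population or from separate infections is not given in the sources used here.

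Each library held 9289533 to 14387770 counted reads (median 11132064.5), of which the 143 genes took 1.09% to 1.25%. Counts are given below as scaled CPM, the library's CPM after upper-quartile scaling, which is not divided by transcript length and so is compared between samples and not between genes. The transcript of EHMT1 that entered the test was counted at 1.66 to 3.22 scaled CPM in shGLP cells with ethanol and 3.74 to 4.60 in shNS cells, a log2 difference of -0.65 that missed the threshold (edgeR adjusted p = 0.0920). With dex the shGLP libraries held 2.22 to 3.08 and the shNS libraries 2.67 to 3.72, and the log2 difference was -0.37 (edgeR adjusted p = 0.411). CBX3 (NM_016587) in shHP1γ cells also missed it, with a log2 difference of -0.61 (edgeR adjusted p = 0.14) with dex. No transcript of EHMT2 entered the test. These counts of a few scaled CPM cannot by themselves settle the depth of each depletion. The study also examined the depletions in these cells by immunoblot and RT-qPCR, and those results are not reported here. The dex-induced gene TSC22D3 (NM_004089) was higher with dex in shNS cells by 3.47 on the log2 scale. Among B-cell precursor markers, RAG1 (1071 to 2813 scaled CPM), VPREB3 and IGLL1 were counted in every library, whereas PAX5 and EBF1 stayed under 1 in every library. On principal components 3 libraries stood apart, namely shG9a with dex replicate 2 and replicate 1 of shHP1γ with ethanol and with dex, and calls of named genes that were lost without them are given below.

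The 143 genes comprised 134 coding transcripts and 9 noncoding ones, of which 3 were antisense RNAs and 6 pseudogenes. For 122 of them the symbol has 1 transcript in the counts. Of the 224 ZNF symbols with 1 transcript, 15 were at 0 in every library. For symbols with several, 1317 of 1735 transcripts were. Absence from the 143 therefore does not show a low level. Genes of a list of ZNF proteins are called measured below where they are among the 143. A place on GRCh37 was found for 139, with 61 on chromosome 19 and 78 spread over the others. The KRAB box was recognised by its letters (EW, 2 residues, L, 2 to 8 residues, LY, 2 residues, VM) in the translated GENCODE coding sequence, and 52 genes carried them, 35 of these on chromosome 19. A further 80 coding genes lacked these letters, which does not show that they lack a KRAB box: ZNF10, better known as KOX1 and the source of the KRAB domain used in gene silencing tools, was among them. Genes with the letters had a median of 12 zinc fingers and those without 7.5.

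The promoters of 4 genes that were lower with shGLP and of ZNF264, a KRAB gene less than a megabase from ZNF134 that was not, are shown because the results turn on genes of these kinds. They were picked after the values were seen. The sequences are RefSeq's for GRCh38.p14, run 5′ to 3′ on the gene's own strand from 250 bases before the start to 50 bases after it, and capitals mark each CG dinucleotide, the base pair step at which vertebrate DNA is methylated. ZNF134 lies at chr19:57613992-57614291 (plus strand), ZNF10 at chr12:133130377-133130676 (plus), ZNF681 at chr19:23758842-23759141 (minus), ZNF93 at chr19:19900696-19900995 (plus) and ZNF264 at chr19:57191250-57191549 (plus).
ZNF134: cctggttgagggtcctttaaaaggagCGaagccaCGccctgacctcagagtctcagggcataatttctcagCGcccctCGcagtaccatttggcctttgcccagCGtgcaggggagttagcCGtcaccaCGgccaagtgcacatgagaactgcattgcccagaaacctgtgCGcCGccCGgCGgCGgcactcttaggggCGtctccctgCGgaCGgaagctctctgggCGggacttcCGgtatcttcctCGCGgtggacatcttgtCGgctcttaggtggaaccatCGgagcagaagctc
ZNF10: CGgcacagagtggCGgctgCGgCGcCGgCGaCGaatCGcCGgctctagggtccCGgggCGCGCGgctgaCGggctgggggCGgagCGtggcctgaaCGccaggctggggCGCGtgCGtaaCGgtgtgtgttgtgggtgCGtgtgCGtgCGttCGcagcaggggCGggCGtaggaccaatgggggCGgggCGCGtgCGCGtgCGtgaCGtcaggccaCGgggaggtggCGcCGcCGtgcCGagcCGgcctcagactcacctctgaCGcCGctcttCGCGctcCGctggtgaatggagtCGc
ZNF681: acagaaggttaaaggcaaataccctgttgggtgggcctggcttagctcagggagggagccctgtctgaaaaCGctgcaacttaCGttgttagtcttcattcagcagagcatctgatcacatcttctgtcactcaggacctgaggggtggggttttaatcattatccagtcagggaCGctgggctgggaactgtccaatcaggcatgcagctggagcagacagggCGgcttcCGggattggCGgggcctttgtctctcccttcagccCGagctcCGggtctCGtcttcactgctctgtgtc
ZNF93: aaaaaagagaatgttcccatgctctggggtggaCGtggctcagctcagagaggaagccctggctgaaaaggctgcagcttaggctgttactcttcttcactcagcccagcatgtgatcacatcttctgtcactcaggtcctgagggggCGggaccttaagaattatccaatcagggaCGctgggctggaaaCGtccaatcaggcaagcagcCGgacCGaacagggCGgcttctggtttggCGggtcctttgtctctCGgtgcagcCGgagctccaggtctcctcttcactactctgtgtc
ZNF264: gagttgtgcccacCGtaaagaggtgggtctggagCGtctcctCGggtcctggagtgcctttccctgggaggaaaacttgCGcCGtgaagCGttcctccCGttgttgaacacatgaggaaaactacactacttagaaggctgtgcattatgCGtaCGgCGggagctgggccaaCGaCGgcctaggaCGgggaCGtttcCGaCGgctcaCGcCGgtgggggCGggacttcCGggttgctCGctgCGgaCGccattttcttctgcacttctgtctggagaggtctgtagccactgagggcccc
These windows held 21 CG dinucleotides in ZNF134, 46 in ZNF10, 9 in ZNF681, 10 in ZNF93 and 23 in ZNF264.

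Depletion of GLP lowered 29 of the 143 ZNF genes with dex and raised 3. Among those lowered were 6 of the 7 ZNF genes between 19.8 and 23.9 Mb of chromosome 19, and ZNF10 on chromosome 12. A transcript was called where edgeR's quasi-likelihood F test, adjusted by Benjamini-Hochberg over all 10167 transcripts tested, gave 0.05 or less, whatever the fold. The lower calls made up 20.3% of the ZNF genes, against 2.46% of all transcripts tested in that direction, and 32 calls in both directions made up 22.4% against 5.77%. Among all 4793 transcripts with a mean of at least 100 reads, the same limit that chose the ZNF genes, 4.32% were lower. With ethanol 25 ZNF genes were lower and 2 higher. The lower calls were 17.5% of the ZNF genes against 1.68% of all transcripts, and the 27 calls in both directions were 18.9% against 3.61%, while 2.73% of transcripts with at least 100 reads were lower.

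**Figure D1:**
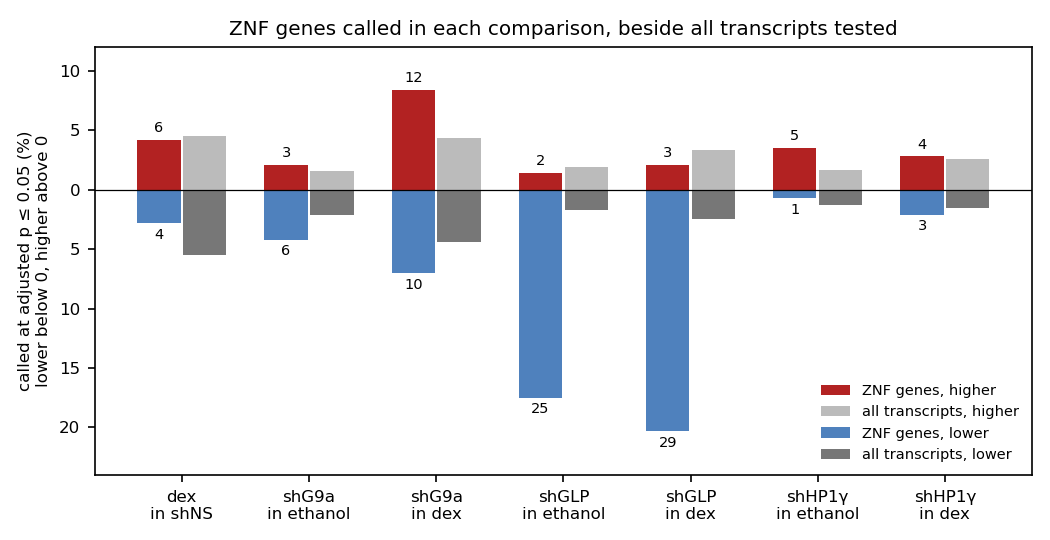
Share of the 143 ZNF genes (colored bars) and of all 10167 transcripts tested (gray bars) called at an edgeR adjusted p of at most 0.05 in each comparison, in percent, with higher calls above 0 and lower calls below it. With shGLP 20.3% of the ZNF genes were lower with dex and 17.5% with ethanol, against 2.46% and 1.68% of all transcripts.

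Counted without any model, all 3 shGLP libraries lay below all 3 shNS libraries for 38 ZNF genes (26.6%) with dex, as did 8.92% of all transcripts tested. With ethanol this held for 36 (25.2%), beside 8.74% of all transcripts. An exact two-sided permutation test on 3 against 3 libraries cannot go below p = 0.1, so every test here borrows its spread from the model across transcripts.

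ZNF134, a zinc finger gene near the end of the long arm of chromosome 19 (chr19:58125601-58136092 on GRCh37), showed the lowest ratio to the control with shGLP in both treatments. With dex it stood at 89.4, 91.9 and 86.0 scaled CPM in the 3 shNS libraries and at 35.9, 41.1 and 34.3 in the 3 shGLP libraries. With ethanol the shNS libraries held 94.6, 93.5 and 88.8 and the shGLP libraries 39.0, 38.4 and 38.6. The groups were far apart in both treatments, and ZNF134 in shGLP cells was at 41.6% of the control with dex (log2 difference -1.26 ± 0.09 SE, n = 3, edgeR adjusted p = 2.85e-09) and at 41.9% with ethanol (-1.25 ± 0.09, edgeR adjusted p = 3.08e-09).

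The same gene moved less with shG9a and the other way with shHP1γ. In shG9a cells it stood at 62.4, 67.7 and 53.9 scaled CPM with dex and at 73.1, 62.8 and 55.8 with ethanol, below every shNS library, with log2 differences of -0.54 ± 0.08 (edgeR adjusted p = 0.000186) and -0.53 ± 0.08 (edgeR adjusted p = 0.000485). In shHP1γ cells it stood at 110.1, 118 and 109 with dex, above every shNS library (0.34 ± 0.08, edgeR adjusted p = 0.0172), and at 102, 114 and 122 with ethanol, where the difference of 0.29 missed the threshold (edgeR adjusted p = 0.0532). ZNF134 was thus lowest in shGLP, then shG9a, then shNS, then shHP1γ cells, and no library of 1 population overlapped with another population within a treatment. All 3 depletions were set against the same shNS libraries.

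ZNF10 (chr12:133707161-133736051 on GRCh37) stood at 31.6, 30.1 and 26.5 scaled CPM in shNS cells with dex and at 14.5, 11 and 11.5 in shGLP cells. With ethanol the values were 36.0, 28.1 and 28.0 in shNS cells and 14.2, 14.3 and 11.1 in shGLP cells. Every shGLP library was under every other library of the study for this gene, at 41.8% of the control with dex (log2 difference -1.26 ± 0.10, edgeR adjusted p = 2.71e-08) and 43.2% with ethanol (-1.21 ± 0.10, edgeR adjusted p = 4.8e-08). In shG9a cells it held 29.8, 24.1 and 21.3 with dex, and in shHP1γ cells 33.4, 24.4 and 26.9, and neither passed the test (log2 differences -0.24 and -0.07). ZNF891, the neighbour of ZNF10 at the end of chromosome 12, stood at 13.7, 16.8 and 14.3 in shNS cells and at 9.11, 8.23 and 8.21 in shGLP cells with dex (log2 difference -0.81, edgeR adjusted p = 0.000237).

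**Figure D2:**
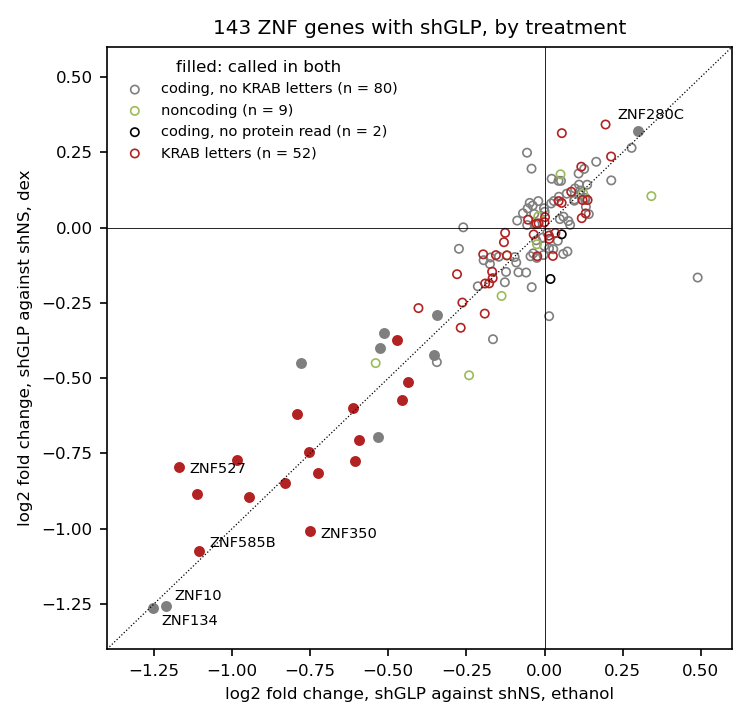
Log2 fold change of shGLP against shNS cells with ethanol (x axis) and dex (y axis) for each of the 143 ZNF genes (points, colored by class, filled where called in both treatments; the dotted line marks equal values). The 24 genes lower in both run along that line down to -1.26 for ZNF134 and ZNF10.

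Of the 29 ZNF genes lower with dex and the 25 lower with ethanol, 24 were the same, which is 82.8% of the first list and 96.0% of the second. The treatments shared no libraries, but both compared cells with the same shGLP and shNS. Across all 143 genes the log2 differences with dex and with ethanol had Pearson's r = 0.925, a description over genes, which are not independent. All 24 were lower in 3 of 3 replicate pairs in each treatment. Among the 24 the log2 differences ran from -1.26 to -0.29 with dex (median -0.73) and from -1.25 to -0.34 with ethanol (median -0.74), and 16 were past 1.5-fold in each treatment. The whole set is named here because its values were seen, apart from the genes the naming rule chose: ZNF134, ZNF10, ZNF585B, ZNF350, ZNF681, ZNF730, ZNF93, ZNF891, ZNF527, ZNF836, ZNF737, ZNF699, ZNF71, ZNF235, ZNF14, ZNF614, ZNF776, ZNF888, ZNF230, ZNF45, ZNF703, ZNF736, ZNF675 and ZNF721. Leaving out replicate 3 reduced the lower calls in both treatments to 10 genes, against 17 without replicate 1 and 20 without replicate 2, while all 24 stayed negative in every one of 10 alternative fits.

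Among these, ZNF585B and its neighbour ZNF527 on chromosome 19 fell by 1.07 and 0.80 on the log2 scale with dex and by 1.11 and 1.17 with ethanol. ZNF585B stood at 47.5% of the control with dex and 46.5% with ethanol (edgeR adjusted p = 2.97e-06 and 3.21e-06). Its close relative ZNF585A had accessions with mean counts of at most 0.0833, and how reads that fit both were counted is not given in the sources used here, so the value of ZNF585B is uncertain to that extent. ZNF350 (ZBRK1), a KRAB protein known to repress the DNA damage gene GADD45A together with BRCA1, fell by 1.01 with dex (edgeR adjusted p = 8.07e-06) and by 0.75 with ethanol (edgeR adjusted p = 0.000398). ZNF730 fell by 0.89 and 1.11 (edgeR adjusted p = 0.00257 and 0.000259).

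ZNF93, the repressor of a family of L1 retrotransposons, fell to 55.5% of the control with dex (log2 difference -0.85 ± 0.10, edgeR adjusted p = 2.72e-06) and to 56.3% with ethanol (-0.83 ± 0.09, edgeR adjusted p = 4.64e-06). The other measured gene on the list of ZNF proteins that act on retroelements, imprints or ZNF loci, ZNF445, which guards imprinted regions, stood at 210.4, 215 and 246 scaled CPM in shNS cells and 217, 217 and 244 in shGLP cells with dex. Those groups overlapped, with a log2 difference of 0.01. The weakest of the 24 were ZNF721 (-0.29 with dex) and ZNF675 (-0.35). ZNF703 is a corepressor that is no classical C2H2 protein and is known as an oncogene of breast cancer. It fell by 0.40 with dex (edgeR adjusted p = 0.0104) and by 0.53 with ethanol (edgeR adjusted p = 0.00113).

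**Figure D3:**
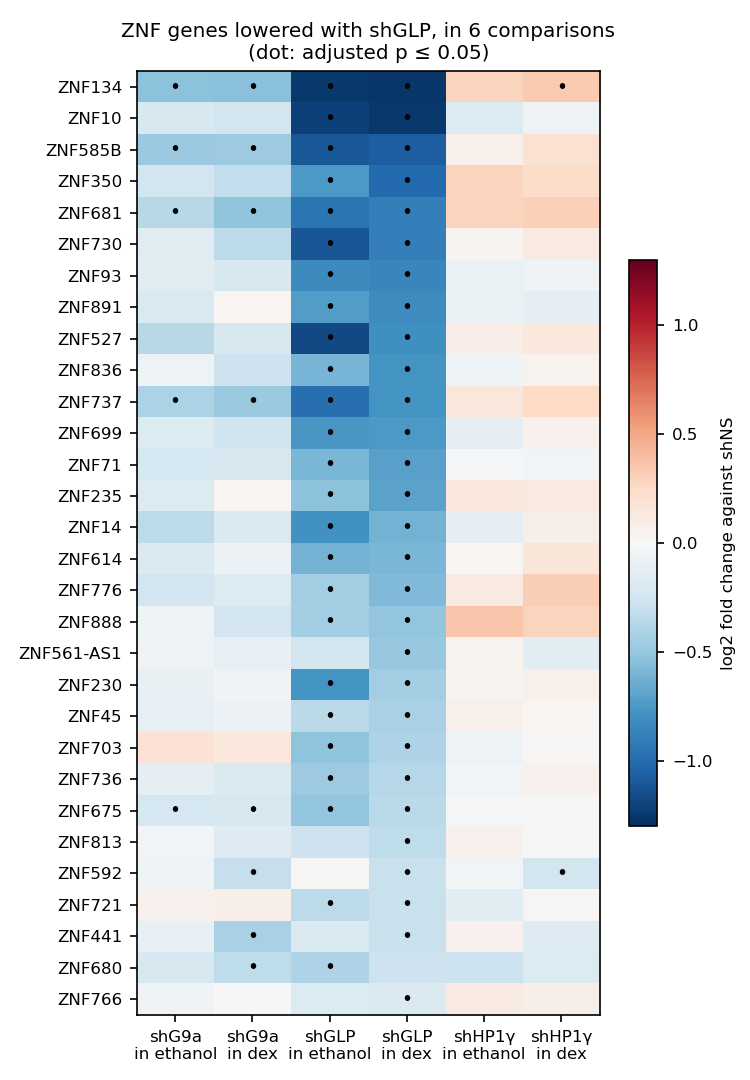
Log2 fold change against shNS cells (color) of the 30 ZNF genes lowered with shGLP in either treatment (y axis) in the 6 comparisons of depleted with shNS cells (x axis), with a dot where the edgeR adjusted p was at most 0.05. The shGLP columns chose the genes, and ZNF134 is the gene with a dot in both shG9a columns and for a rise with shHP1γ and dex.

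The 6 genes called lower in 1 treatment were ZNF561-AS1, ZNF813, ZNF592, ZNF441 and ZNF766 with dex and ZNF680 with ethanol. Whether their response differed between the treatments is the interaction of dex with shGLP, and no ZNF gene passed that test. The few ZNF genes that rose with shGLP moved by less than the lowered set did at its median: ZNF519 rose by 0.34, ZNF280C by 0.32 and ZNF800 by 0.22 on the log2 scale with dex, and ZNF280C by 0.30 and ZNF768 by 0.21 with ethanol. Myeloid markers moved with shGLP as well. Their summed level over 6 genes was 21.0 to 34.3 scaled CPM in the shGLP libraries and 3.01 to 11.9 in all others, nearly all of it from LYZ (19.4 to 31.2 against 1.61 to 10.5). The defining markers CSF1R and ITGAM were at 0 in every library and CD14 reached 0.303 at most, and T-cell, erythroid and epithelial markers stayed under 1 in every library. The part of the myeloid markers in the ZNF differences was not tested, and in bulk RNA fewer cells of a kind and less RNA per cell cannot be told apart.

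Of the 52 genes with the KRAB letters, 19 (36.5%) were lower with shGLP and dex and 17 (32.7%) with ethanol. Of the 80 coding genes without them, 9 (11.2%) were lower with dex and 8 (10.0%) with ethanol. The split depends on the letters used. Of the 24 genes lower in both treatments 16 had the KRAB letters, and 18 were taken by a looser KRAB pattern that took 61 of the ZNF genes. Differences between such classes of genes were not tested. The median log2 difference over all genes with the letters was -0.09 with dex and -0.16 with ethanol, beside 0.01 and 0.00 for those without and 0.03 and 0.01 for all transcripts tested. Most KRAB genes, 32 of 52 with dex and 35 with ethanol, were in neither direction past the threshold. By place, 23 of 61 genes on chromosome 19 were lower with dex (37.7%) and 19 with ethanol (31.1%), against 6 of 78 on the other chromosomes in each treatment (7.69%). The 35 KRAB genes on chromosome 19 gave 17 lower with dex and 14 with ethanol, the 17 KRAB genes elsewhere 2 and 3, and the 24 genes on chromosome 19 without the letters 5 and 5. Of 8 genes with a SCAN domain, a dimerization module of some zinc finger proteins, 0 were lower in either treatment. Genes with 10 or more fingers gave 20 of 67 lower with dex and those with fewer 8 of 65. Lowered genes were counted less deeply, with a median mean count of 314.95 against 605.2 for the other ZNF genes. By depth, 18 of 64 genes with a mean under the round limit of 500 reads were lower with dex, as were 11 of 79 at or above it.

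The lowered genes of chromosome 19 are next given by position. Between 19.8 and 23.9 Mb (GRCh37), 6 of the 7 ZNF genes were lower in both treatments, namely ZNF14, ZNF93, ZNF737, ZNF730, ZNF675 and ZNF681, with a median of -0.77 with dex and -0.83 with ethanol over the 7. The seventh, ZNF714, stood at 69.0, 74.0 and 66.3 scaled CPM in shNS cells and 73.9, 70.0 and 79.1 in shGLP cells with dex, and these overlapped. Between 37.7 and 37.9 Mb both genes were lower, and between 44 and 45.6 Mb 3 of 6 were (ZNF45, ZNF230 and ZNF235). In the large block from 52.1 to 59 Mb 7 of 27 were lower. Between 7.6 and 12.8 Mb only ZNF699 of 14 was lower in both treatments. The blocks were drawn after the values were seen, with a gap of over 2 Mb starting a new one, and neighbouring genes are not independent.

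**Figure D4:**
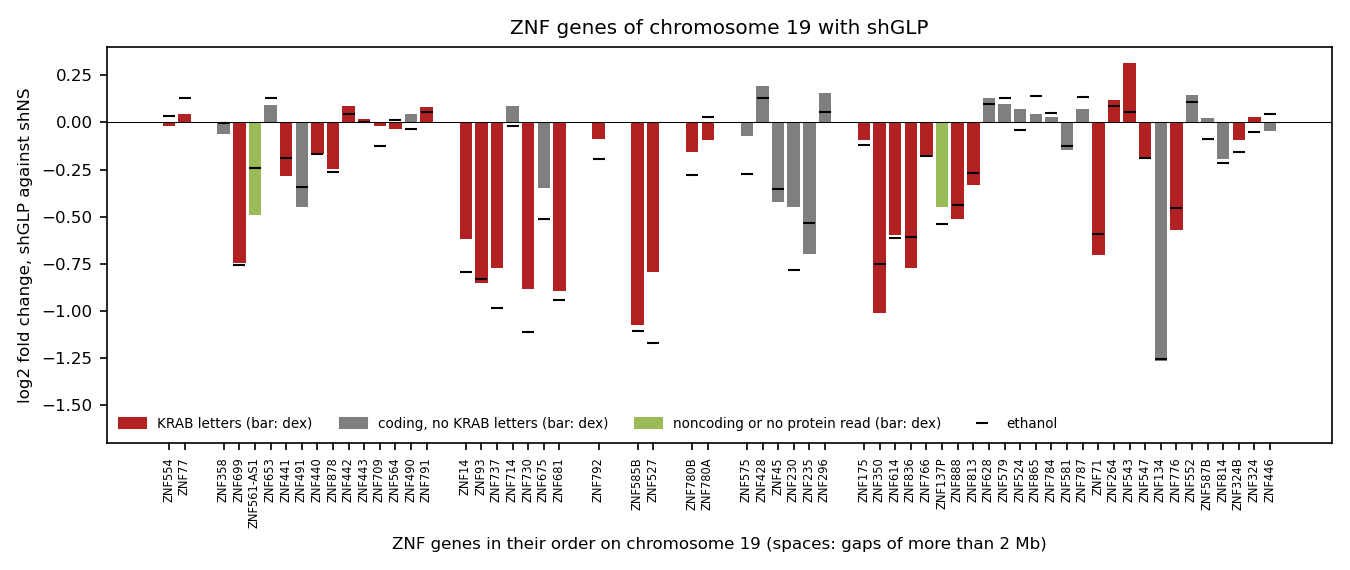
Log2 fold change of shGLP against shNS cells (y axis) for the 61 ZNF genes of chromosome 19 in their order (x axis, with spaces at gaps of over 2 Mb), as bars with dex and dashes with ethanol, colored by class. In the block of 7 genes from ZNF14 to ZNF681 the median with dex is -0.77, and ZNF714 is the gene that stays near 0.

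Promoters were found in RefSeq for 117 of the ZNF genes, 21 of the 24 lowered ones among them. Those 21 windows held a median of 17 CG dinucleotides, against 25 in the 96 other ZNF promoters and 14 in all 27305 promoters, and 56.0% G and C against 63.2% and 58.3%. Among KRAB genes lowered in neither treatment the median was 23. GGGCGG, the GC box of SP1, was found on either strand in 52.4% of the lowered set, in 74.0% of the other ZNF promoters and in 48.3% of all promoters. CCGGAAG, an ETS core, was found in 42.9%, 39.6% and 12.2%, and CCAAT in 57.1%, 52.1% and 39.7%. GCGCNTGCG, bound by NRF1, was found in 23.8%, 17.7% and 9.01%, TATAAA in 9.52%, 5.21% and 14%, and ACANNNTGT in 4.76%, 3.13% and 6.55%. In the windows printed above, ZNF134 and ZNF681 hold CCGGAAG, ZNF264 holds it too, and CCAAT is found in ZNF10, ZNF681 and ZNF93. GATTGGC, which holds the CCAAT letters on its other strand, was found in 9.52%, 11.5% and 7.78%, and TGACGTCA, the CREB site, in 4.76%, 5.21% and 2.25%. These matches describe letters and not binding.

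Depletion of G9a moved ZNF genes in both directions. With dex, 22 ZNF genes were called (15.4%, against 8.80% of all transcripts), 12 higher and 10 lower, and with ethanol 9 were called (6.29%, against 3.73%), 3 higher and 6 lower. Among transcripts with a mean of at least 100 reads 14.9% and 6.80% were called, so the ZNF shares were near that background. Without the replicate block these counts were 5 and 3. With dex the lowest after ZNF134 were ZNF681 (-0.52, edgeR adjusted p = 0.00112), ZNF737 (-0.48, edgeR adjusted p = 0.00253) and ZNF585B (-0.47, edgeR adjusted p = 0.0117). With ethanol ZNF585B was at -0.48 (edgeR adjusted p = 0.0196), ZNF737 at -0.41 (edgeR adjusted p = 0.014) and ZNF681 at -0.36 (edgeR adjusted p = 0.0355). ZNF358 went up with shG9a, from 73.3, 70.6 and 70.2 scaled CPM in shNS cells to 98.4, 102 and 85.8 with ethanol (log2 difference 0.41 ± 0.07, edgeR adjusted p = 0.0005) and from 85.6, 78.4 and 80.5 to 100.0, 90.5 and 99.6 with dex (0.25 ± 0.07, edgeR adjusted p = 0.0201), with no overlap in either treatment. ZNF217, a DNA-binding subunit of corepressor complexes with CoREST and CtBP, stood at 382, 409.8 and 392 in shNS cells and at 349, 336 and 339.7 in shG9a cells with dex (log2 difference -0.21, edgeR adjusted p = 0.0289). Its libraries did not overlap either, and the call was lost without the shG9a library with dex replicate 2 (edgeR adjusted p = 0.0586). Without that library ZNF585B was at -0.67, ZNF681 at -0.48 and ZNF737 at -0.46 with dex, all still called. Of the 10 alternative fits, the dex call held in 9 for ZNF681, 7 for ZNF585B, 6 for ZNF737, 4 for ZNF358 and 3 for ZNF217. With ethanol the call held in 10 for ZNF358, 7 for ZNF585B, 6 for ZNF737 and 5 for ZNF681. Leaving out replicate 3 or replicate 2 reduced the 22 calls with dex to 2 or 5, leaving out the shG9a library with dex replicate 2 gave 16, and leaving out replicate 1, 2 or 3 reduced the 9 calls with ethanol to 3, 4 or 1.

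The 24 genes lowered with shGLP had log2 differences of -0.54 to 0.14 (median -0.21) with shG9a and dex and of -0.12 to 0.34 (median 0.07) with shHP1γ and dex, beside -1.26 to -0.29 with shGLP. With ethanol the ranges were -0.53 to 0.19 (median -0.20) with shG9a and -0.17 to 0.36 (median 0.03) with shHP1γ. The 3 depletions share the shNS libraries, so these are set side by side only. Setting shGLP directly against the other depleted cells, a comparison added after the data were seen, left 27 ZNF genes lower and 5 higher than in shG9a cells with dex (3.81% of all transcripts were lower) and 26 lower and 0 higher with ethanol (2.39%). Against shHP1γ cells 34 were lower and 1 higher with dex (2.34%), and 31 lower and 1 higher with ethanol (2.31%). For ZNF10 the log2 difference of shGLP from shG9a cells was -1.02 with dex and -1.01 with ethanol, and for ZNF134 it was -0.72 in each. The difference of ZNF134 from shHP1γ cells was -1.6 with dex and -1.55 with ethanol. These contrasts use the same shGLP libraries as above.

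Depletion of HP1γ moved few ZNF genes. With dex 7 were called (4.90%, against 4.09% of all transcripts), 4 higher and 3 lower, and with ethanol 6 were called (4.20%, against 2.91%), 5 higher and 1 lower. Among transcripts with a mean of at least 100 reads 6.57% and 5.01% were called. Without the replicate block the counts were 4 and 0. ZNF516, a member of a corepressor complex with CtBP and LSD1, stood at 43.2, 40.0 and 48.8 scaled CPM in shNS cells and at 66.8, 54.7 and 58.1 in shHP1γ cells with dex, without overlap (log2 difference 0.44 ± 0.08, edgeR adjusted p = 0.000782). ZNF367 stood at 133, 127 and 122 in shNS and 90.4, 99.9 and 104 in shHP1γ cells with dex (-0.37 ± 0.08, edgeR adjusted p = 0.00692), and at 163, 132 and 144 against 116, 115 and 125 with ethanol (-0.30 ± 0.08, edgeR adjusted p = 0.0407). It was lower in all shHP1γ libraries than in all shNS libraries of the same treatment. ZNF275 rose by 0.37 with dex (edgeR adjusted p = 0.00662), ZNF768 rose by 0.27 with ethanol (edgeR adjusted p = 0.0101) and ZNF22 fell by 0.21 with dex (edgeR adjusted p = 0.0263). Without replicate 1 of shHP1γ, ZNF516 was at 0.36, ZNF275 at 0.38, ZNF768 at 0.23 and ZNF367 with dex at -0.27, all still called. ZNF367 with ethanol (-0.22, edgeR adjusted p = 0.114) and ZNF22 (-0.16, edgeR adjusted p = 0.0733) were then not. Of the 10 alternative fits, the dex call held in 10 for ZNF516, 8 for ZNF367, 7 for ZNF275 and 4 for ZNF22. With ethanol the call held in 4 for ZNF768 and 4 for ZNF367. Leaving out replicate 3 reduced the calls to 2 with dex and 0 with ethanol, leaving out replicate 2 to 4 and 1, and leaving out the shG9a library with dex replicate 2 raised them to 12 and 14.

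ZNF280C and ZNF592 were the genes called in one direction with each of the 3 shRNAs in a treatment. ZNF280C (X chromosome) stood at 57.2, 58.7 and 61.9 scaled CPM in shNS cells with dex, at 80.5, 73.8 and 72.1 with shG9a, at 76.7, 70.8 and 74.9 with shGLP and at 89.7, 74.3 and 75.4 with shHP1γ. The log2 differences were 0.35, 0.32 and 0.42 (edgeR adjusted p = 0.00209, 0.00415 and 0.000419). With ethanol they were 0.29, 0.30 and 0.32 (edgeR adjusted p = 0.0135, 0.0101 and 0.00950). Every depleted library was above every shNS library of its treatment, and the 3 comparisons of a treatment share the same 3 shNS libraries. Over the 10 alternatives the dex calls held in 9, 7 and 10 fits and the ethanol calls in 5, 6 and 5, with the same direction in all.

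ZNF592, a partner of the chromatin reader ZMYND8, was lower with each shRNA with dex and not with ethanol. With dex it stood at 476, 489 and 563 scaled CPM in shNS cells, at 406, 358 and 479 with shG9a, at 398, 394 and 453 with shGLP and at 386, 434 and 474 with shHP1γ. The log2 differences were -0.30, -0.29 and -0.24 (edgeR adjusted p = 0.00230, 0.00259 and 0.0216), and within each replicate the shNS library was the highest. These calls held in 6, 8 and 5 of the 10 alternatives (largest edgeR or DESeq2 adjusted p = 0.170, 0.231 and 0.445), and the call with shHP1γ was lost without its replicate 1 (-0.19, edgeR adjusted p = 0.0555), so a call with all 3 shRNAs did not hold throughout. With ethanol the shNS libraries held 354, 364 and 411, and the differences were -0.05, 0.01 and -0.03. Dex raised ZNF592 in shNS cells by 0.43 ± 0.06 (edgeR adjusted p = 1.8e-05), in shG9a cells by 0.19, in shGLP cells by 0.13 and in shHP1γ cells by 0.23. The test of that difference, the interaction of dex with the shRNA, gave -0.25, -0.31 and -0.21 and missed the threshold after adjustment over all transcripts (edgeR adjusted p = 0.627, 0.484 and 1.00).

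Dex alone moved few ZNF genes. In shNS cells 10 of 143 were called (6.99%, against 9.95% of all transcripts and 16.9% of those with a mean of at least 100 reads), 6 higher and 4 lower. Without the replicate block 5 were called, without replicate 3 4 were, and without the shG9a library with dex replicate 2 or without replicate 1 of shHP1γ 17 were. ZNF608, the ZNF gene with the most reads, stood at 911, 814 and 808 scaled CPM with ethanol and at 603, 504 and 505 with dex in shNS cells, without overlap (log2 difference -0.65 ± 0.09, edgeR adjusted p = 3.15e-05). It was also called lower with dex in each depleted population, with log2 differences of -0.36 in shG9a, -0.35 in shGLP and -0.42 in shHP1γ cells (edgeR adjusted p = 0.0234, 0.0389 and 0.00910). ZNF516 fell by 0.41 in shNS cells (edgeR adjusted p = 0.000688), from 58.3, 57.1 and 59.4 to 43.2, 40.0 and 48.8. ZNF862 rose by 0.43 (edgeR adjusted p = 0.0169). ZNF318, whose mouse counterpart is needed for the switch from IgM to IgD mRNA in B cells, rose by 0.25 (edgeR adjusted p = 0.00454).

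ZNF831 showed the steepest rise with dex. In shNS cells it went from 8.51, 7.92 and 6.89 scaled CPM to 28.1, 24.9 and 27.0, and the groups were far apart (log2 difference 1.79 ± 0.28, edgeR adjusted p = 8.59e-05). In shG9a cells it went from 13.6, 15.6 and 14.1 to 26.3, 20.7 and 28.3 (0.79, edgeR adjusted p = 0.0743) and in shGLP cells from 11, 11.5 and 10.0 to 22.5, 25.5 and 22.8 (1.13, edgeR adjusted p = 0.0186). In shHP1γ cells replicate 1 stood apart, with 32.8 with ethanol and 66.2 with dex, beside 14.8 and 11.2 with ethanol and 27.2 and 26.5 with dex in the other replicates (1.03, edgeR adjusted p = 0.0187). The ethanol level of ZNF831 was above all shNS libraries in every depleted library, by 0.91 with shG9a (edgeR adjusted p = 0.0935), 0.49 with shGLP (edgeR adjusted p = 0.555) and 1.28 with shHP1γ (edgeR adjusted p = 0.0145). Without replicate 1 of shHP1γ the last became 0.76 (edgeR adjusted p = 0.00651). The interactions of dex with the shRNA were -1.0, -0.66 and -0.76 and passed no threshold. Without replicate 1 of shHP1γ the interaction with shG9a did pass it (-0.98, edgeR adjusted p = 0.0106).

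Over all 143 genes, 0 passed the interaction of dex with shG9a (0.0885% of all transcripts did), 0 that with shGLP (0.118%) and 0 that with shHP1γ (0.0197%) in edgeR's test. At an unadjusted p under 0.05 there were 9, 5 and 4 of the 143, beside 6.75%, 3.89% and 3.81% of all transcripts tested. DESeq2 called 0, 1 and 0 of the 143 after adjustment. Within the depleted populations dex changed 5 ZNF genes in shG9a cells (6.24% of all transcripts), all lower, 2 in shGLP cells (3.29%) and 3 in shHP1γ cells (3.22%).

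**Figure D5:**
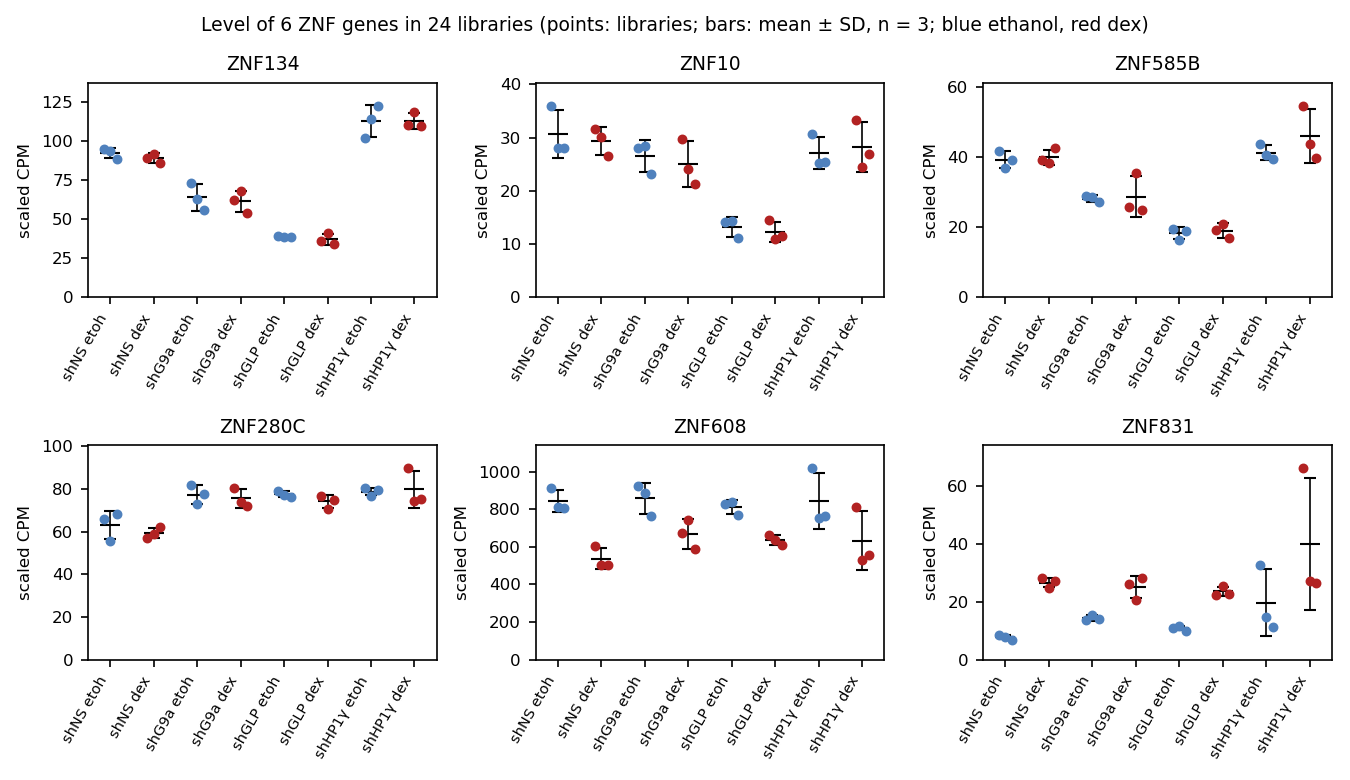
Scaled CPM (y axis, from 0) of 6 ZNF genes in the 8 groups (x axis), with points for the 3 libraries of a group and bars for the mean ± SD. ZNF134 and ZNF10 are lowest in the 6 shGLP libraries, and replicate 1 of shHP1γ stands above the others for ZNF831.

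Some ZNF proteins have known roles other than KRAB repression. Of 13 listed ZNF proteins of chromatin complexes 7 were measured. ZNF644, which binds G9a and GLP and guides them to DNA, stood at 272, 286 and 269.8 scaled CPM in shNS cells with dex, at 279, 246 and 265 with shG9a, at 297, 307 and 280.1 with shGLP and at 307, 263 and 259.6 with shHP1γ, and was called in no comparison. The groups overlapped in each case. In this list shG9a with dex gave 2 higher (ZNF280C and ZNF516) and 2 lower (ZNF592 and ZNF217), and shGLP with dex 1 higher and 1 lower (ZNF280C and ZNF592). Of all transcripts tested, 8.80% and 5.77% were called in these comparisons. Of 13 proteins that act on RNA, translation or cell division 7 were measured, with 0 calls for shGLP or shHP1γ in either treatment and 1 with shG9a and dex, ZNF593 (0.31, and 0.12 with edgeR adjusted p = 0.441 without the shG9a library with dex replicate 2). One of them, ZNF598, the ubiquitin ligase that marks collided ribosomes, stood at 355, 351 and 377 in shNS cells and 349, 369.6 and 370.1 in shGLP cells with dex. The 3 measured of 9 promoter-binding proteins (ZNF263, ZNF335 and ZNF24) gave 0 calls for any shRNA, and ZNF263 fell by 0.19 with dex in shNS cells (edgeR adjusted p = 0.0408). Of 29 cofactors of KRAB repression and H3K9 methylation, 21 were tested. The calls were 2 of the 21, both with shGLP and dex. CDYL rose by 0.59 (edgeR adjusted p = 0.0323) and CHD3 by 0.78 (edgeR adjusted p = 0.0483). Of all transcripts tested, 3.31% were higher in that comparison, and a difference from that share was not tested. TRIM28 itself differed by 0.11 (edgeR adjusted p = 0.541).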

How the data were processed

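The authors aligned reads with HISAT2 to hg19 (GRCh37), counted them per RefSeq transcript with GenomicAlignments and deposited the counts, whole numbers that were not normalized, for 24 libraries. How shared reads and strand were treated, and which RefSeq release was used, is not given in the sources used here, so antisense partners and near-identical relatives may share reads. Columns of the authors' own fold changes and FDR for 4 comparisons were not used, apart from which transcripts their table lists.

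Transcripts with over 1 CPM in at least 2 libraries (10167) entered edgeR 4.0.16 (R 4.3.3) with upper-quartile scaling, 8 groups and the replicate number as a block, followed by the quasi-likelihood F test and Benjamini-Hochberg adjustment over all of them. Per the labels' protocols the replicates of a condition were made on different days. Over 5606 transcripts, same-numbered libraries had deviations from their group means that correlated at -0.042 to 0.830 (median 0.338), with 79 of 84 pairs over 0.1. P-values measure the spread between these replicates, with 1 shRNA named per protein. Whether each replicate was infected separately is not given in the sources used here. Scaled CPM and percent of control are computed from this fit. The script was tested on simulated data with known changes.

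ZNF classes were read from GENCODE v44lift37 coding sequences, since a RefSeq protein table was not used here, and promoters from RefSeq (GRCh38.p14). The ZNF genes and lists were chosen with earlier results of these data known. Genes named with values were, for each of 7 comparisons, the 4 called genes with the largest change in one direction in 3 of 3 pairs, those called in one direction with all 3 shRNAs, the 5 with the most reads, those next to the limit of 100, ZNF644 and ZNF831, and others named are said to be chosen after their values were seen or belong to a list. Alternatives were TMM scaling, DESeq2 1.42.0, no filter, no replicate block, only the groups compared, and leaving out each replicate. Leaving out the shG9a library with dex replicate 2, or replicate 1 of shHP1γ, and the contrasts of shGLP with shG9a and shHP1γ were added after the data were seen.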

Additional observations from a re-analysis of the deposited data

How the results depend on the processing

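The number of ZNF genes called varied with the processing more than their direction did. Over 88 results of a named gene in a comparison, each refitted under 10 alternatives, no difference changed sign. The 32 and 27 calls with shGLP and dex or ethanol stayed within 1.5 times under TMM scaling, DESeq2, no filter, no replicate block and only the groups compared. The 24 genes lowered in both treatments became 24 under TMM scaling, DESeq2 and no filter, 21 without the replicate block and 28 with only the groups compared, and 9 of the 24 were called in every alternative. Without the replicate block, the fit that drops the pairing, calls were 5 for dex in shNS, 5 for shG9a with dex, 4 for shHP1γ with dex, 3 for shG9a with ethanol and 0 for shHP1γ with ethanol. Without the filter they were 5 for dex in shNS, 11 for shG9a with dex and 1 for the interaction of dex with shG9a. With only the groups compared they were 29 for dex in shNS, 2 for shG9a with dex, 19 for shG9a with ethanol, 2 for shHP1γ with ethanol and 3 for the interaction with shGLP. DESeq2 gave 12 for shHP1γ with ethanol and 1 for the interaction with shGLP. TMM scaling moved no count by over 1.5 times. The cause of these shifts was not tested. Leaving out libraries gave 4 to 17 calls for dex in shNS, 2 to 28 for shG9a with dex, 14 to 36 for shGLP with dex, 2 to 12 for shHP1γ with dex, 1 to 14 for shG9a with ethanol, 13 to 31 for shGLP with ethanol, 0 to 14 for shHP1γ with ethanol and 0 to 1 for the interaction with shG9a. Dropping a replicate removes libraries from every group, and the lowest counts came without replicate 3. The share of higher calls moved from 60% to 77.8% for dex in shNS under DESeq2, from 83.3% to 66.7% for shHP1γ with ethanol and from 33.3% to 50% for shG9a with ethanol. The median of all transcripts moved by at most 0.09 on the log2 scale. The ZNF genes just inside the limit of 100 reads were counted least deeply, so small differences were least detectable in them.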

Other observations

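Zinc finger genes with other symbols were counted with the same limit of 100 reads (ZBTB, ZSCAN, ZKSCAN, ZFP and KLF, 33 genes), a rule of symbols that also took ZFP36 and ZFP36L2, whose fingers are of the CCCH kind. With shGLP 3 of the 33 were lower with dex (9.09%, against 4.32% of all transcripts at that limit) and 1 with ethanol (3.03%, against 2.73%). ZFP28, itself a KRAB zinc finger gene, fell by 1.48 on the log2 scale with dex (edgeR adjusted p = 7.91e-07) and by 1.24 with ethanol (edgeR adjusted p = 9.11e-06), more than any ZNF gene here with dex. KLF2, a regulator of lymphocyte quiescence and trafficking, rose by 3.78 with dex in shNS cells (edgeR adjusted p = 1.23e-07) and fell by 1.16 with shGLP and by 1.5 with shG9a in dex-treated cells (edgeR adjusted p = 0.0189 and 0.00253). These genes were named after their values were seen.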
